A study of Mus musculus with 60 samples.

Results

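Lysyl oxidases and elastic fibre genes were followed in RNA sequencing of mouse fibroblasts. The 10 genes were chosen by name: the lysyl oxidases Lox, Loxl1, Loxl2, Loxl3 and Loxl4, the fibre core gene Eln, the microfibril genes Fbn1 and Fbn2, and the assembly genes Fbln5 and Efemp2. They are 10 of the 56980 gene identifiers in each of 2 count tables, and all 10 passed the filter on low counts in both tables (15832 genes were tested in the first table, on reprogramming, and 15652 in the second, on inhibitors).

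Elastic fibres are made of a core of cross-linked elastin, the product of Eln, on a scaffold of fibrillin microfibrils, the products of Fbn1 and Fbn2. Fibulin-5 (Fbln5) and fibulin-4 (Efemp2) bring tropoelastin and lysyl oxidases to the microfibrils. Lysyl oxidases are secreted copper enzymes that oxidise lysines of elastin and collagen so that the chains can cross-link. In skin fibroblasts, TGFb signalling through the receptor ALK5 is known to raise the expression of matrix genes, among them lysyl oxidases.

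The reprogramming table holds 36 libraries in 12 groups of 3. 4F D/KO cells (4FJ_ERCC1_(d/-)) are tail tip fibroblasts of a male mouse of 8 weeks that carry a truncated and a null Ercc1 allele, and 4F WT cells (4FJ_(+/-)_OCT4-GFP) those of a female mouse of 22 weeks. In both lines doxycycline at 2 µg/ml, given for 0, 2 or 4 days, switches on the factors Oct4, Klf4, Sox2 and Myc from a transgene in the Col1a1 locus through rtTA at ROSA26, with or without VC, a mixture of ascorbic acid at 50 µg/ml and the GSK3 inhibitor CHIR at 3 µM. The inhibitor table holds 24 libraries in 8 groups of 3. D/KO control cells (ERCC1_(d/-), female, 4 weeks) were compared with the same cells given Repsox, Vactosertib, A83-01 or DMH-1, with WT control cells (ERCC1_(+/+), tail tip, female, 14 weeks) and with WT skin control cells of the same sex and age, and the table also holds 4F WT cells labelled TGFB (female, 22 weeks). Repsox and A83-01 inhibit ALK5, DMH-1 inhibits ALK2 and Vactosertib inhibits ALK5 and ALK2. The paper traces the 4Fj mice and the reprogrammable Oct4-EGFP wild-type cells to different earlier studies, so the transgene may differ between the lines. Genotype, sex, age and line, transgene included, change together between 4F D/KO and 4F WT cells. The D/KO line of the inhibitor table is not that of the reprogramming table.

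The reprogramming libraries held 16538374 to 18484951 counts each, and the inhibitor libraries 17102639 to 30599138. Nothing in the labels says that the 3 libraries of a group came from separate animals, so p-values measure only the spread between these libraries. All 36 reprogramming libraries lay nearest to their own group, against 18 of 24 in the inhibitor table. WT skin control replicate 1 and Repsox replicate 2 stood apart from their groups. They also had few counts on long transcripts: the score for transcripts of at least 8000 bases against short ones, in log2 units, was -1.11 and -0.77 in these 2 libraries and -0.67 to 0.39 in the other 22. Ercc1 was 8.03 to 18.6 CPM (counts scaled to a common library size, on library totals scaled by TMM) in 4F D/KO and 16.8 to 29.1 CPM in 4F WT libraries, ranges that overlap, and Ddx3y, a Y-linked gene, was above 0 in 4F D/KO libraries only, as labelled. In the inhibitor table Ercc1 was 13.2 to 23.5 CPM in D/KO and 13.29 to 21.65 CPM in WT control libraries, so its level does not separate these genotypes. All 9 fibroblast markers had counts in every group, but their sum moved with some of the groups: from 80000.0–119000.0 CPM at day 0 to 37300.0–39000.0 CPM at day 4 in 4F D/KO cells, and from 184000.0–253000.0 to 33100.0–34300.0 CPM with VC. In 4F WT cells with VC the sum went from 156000.0–171000.0 to 60900.0–72000.0 CPM. In the inhibitor libraries the sum was 79200.0–84400.0 CPM in D/KO control, 40600.0–48200.0 CPM with Repsox, 49100.0–52500.0 CPM with Vactosertib and 42400.0–45000.0 CPM with A83-01. It moved less in 4F WT cells without VC (52000.0–53800.0 CPM at day 0 and 45900.0–48200.0 CPM at day 4), and with DMH-1 it overlapped D/KO control (68100.0–85700.0 CPM). Its part in the falls of the members was not tested. Summed epithelial markers rose from 0.324–1.12 CPM to 480.0–591.0 CPM between day 0 plus VC and day 4 plus VC in 4F D/KO cells, and fewer cells of a type cannot be told apart from less RNA per cell in any of these bulk libraries.

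In the deposited tables, built on GRCm39, the lysyl oxidase genes lie on 5 chromosomes: Lox on chromosome 18 (52649139 to 52662939), Loxl1 on chromosome 9 (58195021 to 58220469), Loxl2 on chromosome 14 (69846517 to 69933283), Loxl3 on chromosome 6 (83011154 to 83029543) and Loxl4 on chromosome 19 (42582421 to 42601252). Eln lies on chromosome 5 (134731447 to 134776177), Fbn1 on chromosome 2 (125142514 to 125349913), Fbn2 on chromosome 18 (58141695 to 58343559), Fbln5 on chromosome 12 (101712824 to 101785314) and Efemp2 on chromosome 19 (5523982 to 5532545). In GENCODE M39 all of them but Fbln5 share exon bases with a gene on the other strand, and strand use in the counting was not given in the sources used here. The named partners were low: Htra2 at Loxl3 ran from 20.8 to 36.5 CPM over all libraries, R3hcc1 at Loxl2 from 16.8 to 38.1 CPM and Mus81 at Efemp2 from 8.00 to 16.1 CPM. R3hcc1l at Loxl4 ran from 9.41 to 20.0 CPM, which is of the order of Loxl4 itself in the inhibitor groups, so the level of Loxl4 is uncertain. The levels of the predicted (Gm) partner genes were not read here.

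Per kilobase of exon, Lox was the most abundant of the 10 genes in every group before doxycycline and in every inhibitor table group. In 4F D/KO cells at day 0, Lox stood at 1460 ± 271.0 CPM per kilobase (mean ± SD, n = 3), Fbn1 at 406.0 ± 9.27 and Efemp2 at 306.0 ± 10.4. In the same cells Fbn2 stood at 2.12 ± 0.64 and Eln at 1.68 ± 0.73 CPM per kilobase, the lowest of the 10 and within each other's spread. By day 4 the order had changed: Fbn1 ranked first at 296.0 ± 63.0, Lox second at 256.0 ± 24 and Eln in place 3 at 184.0 ± 36 CPM per kilobase, with Fbn1 and Lox within each other's spread. In 4F WT cells Eln moved from 9.72 ± 3.49 to 67.2 ± 2.38 CPM per kilobase and kept rank 8 of 10.

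**Figure D1:**
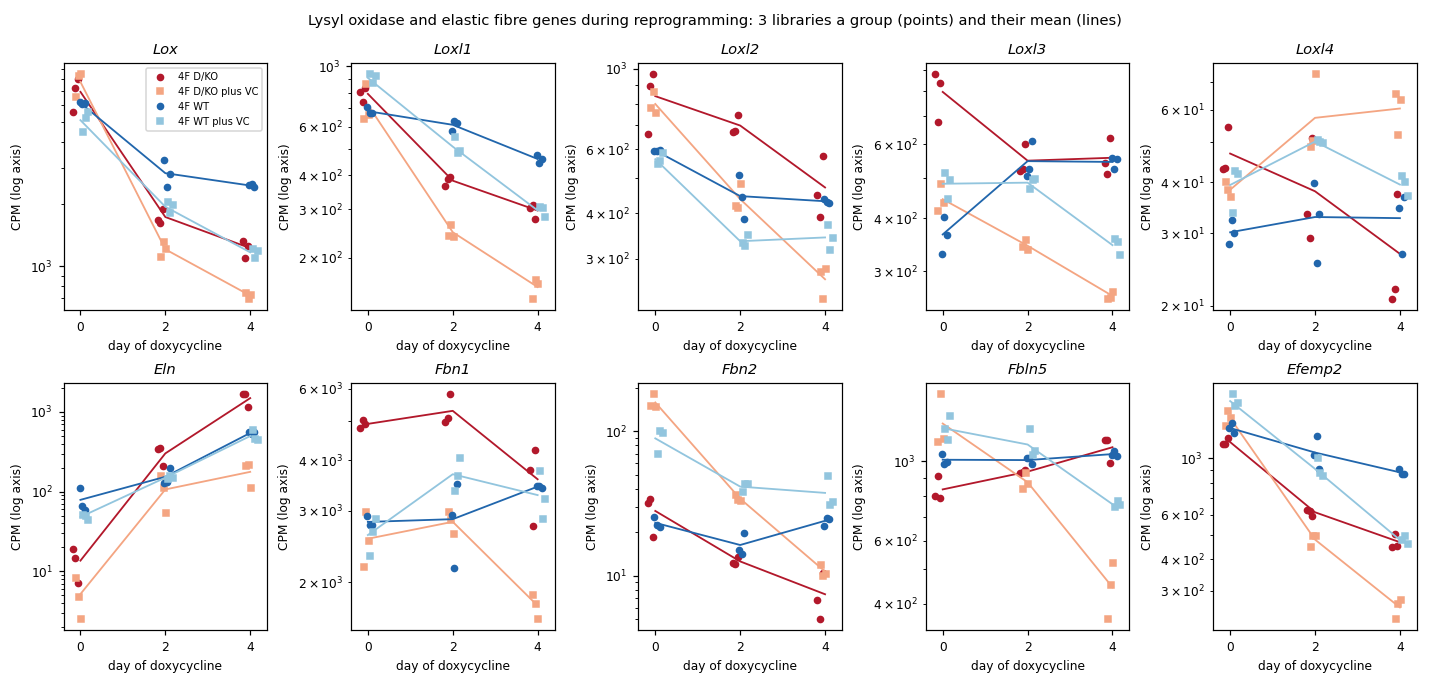
Level of each gene (CPM, log axis) against the day of doxycycline, with 1 point for each library and lines through the means of 3 libraries, for 4F D/KO (red) and 4F WT (blue) cells without VC (circles) and with VC (pale squares). Eln climbs in all 4 series, from 7.19–18.8 to 1154–1661 CPM in 4F D/KO cells, while Lox falls in all 4.

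Elastin rose and Lox fell as doxycycline went on. Among 4F D/KO cells, Eln was 18.8, 14.8 and 7.19 CPM in the 3 libraries at day 0, 341.8, 355.2 and 207.2 CPM at day 2, and 1657, 1661 and 1154 CPM at day 4. No library of a later day overlapped one of an earlier day. The log2 change from day 0 (estimate ± SE) was 4.48 ± 0.41 after 2 days (edgeR adjusted p = 2.4e-09). It reached 6.78 ± 0.45 after 4 days (edgeR adjusted p = 2.1e-12), a 110.1-fold rise. With VC, Eln started lower, at 8.22, 4.74 and 2.52 CPM, and reached 155.0, 109.6 and 54.3 CPM at day 2 and 207.3, 212.6 and 110.6 CPM at day 4. The day 4 libraries with VC were all below every day 4 library without it, and the change from day 0 plus VC was 5.08 ± 0.44 on the log2 scale (edgeR adjusted p = 2.5e-10), or 3.71 against day 0 without VC.

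Within the 4F WT line, Eln began higher, at 111.1, 65.8 and 59.2 CPM. It was 127.5, 133.6 and 198.8 CPM at day 2, where the log2 difference of 0.96 ± 0.35 missed the threshold (edgeR adjusted p = 0.0812) but passed without day 0 replicate 1 (1.30, edgeR adjusted p = 0.0418). At day 4 it was 558.0, 522.4 and 553.1 CPM, a log2 change of 2.79 ± 0.37 (edgeR adjusted p = 1.93e-06). With VC it had risen by day 2, from 43.99–50.6 to 142.8–157.7 CPM (1.64 ± 0.36, edgeR adjusted p = 0.000936, or 0.93 against day 0 without VC). It reached 445.3–593.0 CPM at day 4 plus VC, a log2 change of 3.38 ± 0.38 (edgeR adjusted p = 5.13e-08). Against day 0 without VC, at 59.2 to 111.1 CPM, that rise is smaller. Smooth muscle and pericyte markers, a cell class that also makes elastin, moved with Eln in part: their 5 genes, all with counts in every group, summed to 236.0–241.0 CPM at day 0 and 366.0–439.0 CPM at day 4 in 4F D/KO cells, and to 47.0–53.2 and 133.0–152.0 CPM in 4F WT cells. For 4F D/KO cells, with VC the sum went from 58.2–75.4 to 217.0–261.0 CPM. The sum of 5 endothelial markers rose with Eln in 4F WT cells, from 14.5–17.3 to 95.3–95.7 CPM and with VC from 4.73–7.07 to 98.0–116.0 CPM. In 4F D/KO cells that sum fell without VC, from 585.0–709.0 to 327.0–345.0 CPM, and rose with VC, from 215.0–256.0 to 383.0–514.0 CPM. The part of either class in the Eln result was not tested.

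Lox, the founding lysyl oxidase, moved the other way. Within the 4F D/KO line, it was 5553, 7273 and 8087 CPM at day 0, 1666, 1620 and 1899 CPM at day 2, and 1317, 1095 and 1254 CPM at day 4. The 3 days did not overlap, and most of the fall came in the first 2 days: the log2 change was -2.01 ± 0.13 after 2 days (edgeR adjusted p = 9.47e-16) and -2.51 ± 0.13 after 4 (edgeR adjusted p = 1.05e-18). With VC the day 4 libraries stood at 742.0, 695.8 and 722.6 CPM, a log2 change of -3.43 ± 0.14 from day 0 plus VC (edgeR adjusted p = 1.06e-22). Among 4F WT cells, Lox went from 6056–6227 CPM to 2402–2491 CPM at day 4, a log2 change of -1.33 ± 0.13 (edgeR adjusted p = 8.32e-11). With VC in 4F WT cells the log2 change was -2.12 ± 0.13 (edgeR adjusted p = 1.01e-16).

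Over the 12 reprogramming groups, Lox was highest at day 0 plus VC in 4F D/KO cells (7786 ± 1030 CPM) and lowest at day 4 plus VC in the same cells (720.1 ± 23.2 CPM). Neighbours in that order often shared values: the libraries of 4F D/KO day 0, with and without VC, overlapped, and so did those of 4F D/KO day 4, 4F D/KO day 2 plus VC and 4F WT day 4 plus VC. For Eln the top group was 4F D/KO day 4 (1491 ± 292.0 CPM), apart from the next, 4F WT day 4 (544.5 ± 19.3 CPM). The lowest Eln groups, 4F D/KO day 0 with and without VC, overlapped.

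Loxl1, the lysyl oxidase tied to elastin renewal, and Efemp2, which binds both Lox and tropoelastin, fell beside Lox. Loxl1 was 801.9, 740.7 and 832.1 CPM at day 0 and 304.2, 309.9 and 276.5 CPM at day 4 in 4F D/KO cells (log2 change -1.42 ± 0.10, edgeR adjusted p = 5.11e-15). Efemp2 was 1135, 1138 and 1204 CPM at day 0 and 445.2, 503.1 and 451.3 CPM at day 4 in the same cells (log2 change -1.31 ± 0.10, edgeR adjusted p = 6.17e-14). Neither gene overlapped between the days. With VC the falls were larger in size, to 141.5–166.1 CPM for Loxl1 (log2 change -2.21) and 232.6–274.7 CPM for Efemp2 (log2 change -2.48). For 4F WT cells, the log2 change at day 4 was -0.58 for each gene, and -1.61 for Loxl1 and -1.82 for Efemp2 with VC. Loxl1 and Efemp2 were also each other's nearest gene: over the 12 group means of log2 CPM, centred on their own average, they differed by a root mean square of 0.14, the smallest distance from Loxl1 and from Efemp2 to any of the 15832 genes.

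Loxl2, which also works on collagen IV, fell in every series at day 4. In 4F D/KO cells it went from 661.1, 895.0 and 965.5 CPM to 449.7, 389.4 and 574.1 CPM (log2 change -0.83, edgeR adjusted p = 4.38e-07), and with VC to 232.7–281.6 CPM (log2 change -1.60). Within the 4F WT line, it went from 593.0–598.9 to 426.0–439.1 CPM (log2 change -0.46, edgeR adjusted p = 0.0039), and the change with VC was -0.72.

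Loxl3, a lysyl oxidase needed for palate and spine in development, went in opposite directions in the 2 lines. Among 4F D/KO cells, it fell from 677.6–878.9 CPM at day 0 to 509.7–619.9 CPM at day 4 (log2 change -0.52, edgeR adjusted p = 6.27e-05). In 4F WT cells it rose from 329.4–403.5 to 522.4–557.6 CPM (log2 change 0.57, edgeR adjusted p = 3.59e-05). The lines thus met at a like level by day 4 (557.0 ± 56.7 and 544.4 ± 19.2 CPM). With VC it fell in both, by 0.76 in 4F D/KO and by 0.48 in 4F WT cells on the log2 scale. The 4F WT fall rests on the VC baseline, since against day 0 without VC it was -0.08 (edgeR adjusted p = 0.545).

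Loxl4, the least abundant lysyl oxidase, changed direction with VC in 4F D/KO cells. For 4F D/KO cells, it was 42.99, 43.2 and 54.5 CPM at day 0 and 20.8, 22.0 and 37.5 CPM at day 4 (log2 change -0.81, edgeR adjusted p = 0.00122). With VC it was 39.99, 38.2 and 36.7 CPM at day 0 and 65.6, 52.0 and 63.4 CPM at day 4 (log2 change 0.66, edgeR adjusted p = 0.00487). Against day 0 without VC that rise was 0.36 on the log2 scale and missed the threshold (edgeR adjusted p = 0.114). Its rise at day 2 plus VC (0.58) was lost without day 2 plus VC replicate 3 (0.37, edgeR adjusted p = 0.148). Among 4F WT cells, no change from day 0 passed the test (log2 differences from 0.00 to 0.35 over the 4 comparisons). Against day 0 without VC, the day 2 plus VC libraries were higher by 0.73 (edgeR adjusted p = 0.00326).

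Fbn2, the fibrillin of fetal tissue, had the largest swings after Eln. VC alone raised it at day 0, from 32.0, 33.8 and 18.4 to 149.2, 180.8 and 146.8 CPM in 4F D/KO cells (log2 change 2.50 ± 0.20, edgeR adjusted p = 7.3e-12) and from a mean of 23.2 ± 1.91 to one of 89.5 ± 17.1 CPM in 4F WT cells (1.95 ± 0.20, edgeR adjusted p = 1.76e-09). From there it fell to 11.8, 9.97 and 10.3 CPM at day 4 plus VC in 4F D/KO cells (-3.90 ± 0.21, edgeR adjusted p = 8.37e-17) and to 31.1–48.8 CPM in 4F WT cells (-1.26 ± 0.19, edgeR adjusted p = 1.93e-06). Both falls depend on the VC baseline, since against day 0 without VC the log2 change was -1.39 in 4F D/KO cells and 0.69 in 4F WT cells (edgeR adjusted p = 0.0049). Without VC it fell in 4F D/KO cells (-1.92, edgeR adjusted p = 4.71e-09) and differed by 0.05 in 4F WT cells (edgeR adjusted p = 0.901).

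Fbn1, the main fibrillin of adult tissue, and Fbln5 moved little without VC. Fbn1 was 4811–5035 CPM at day 0 and 2747–4234 CPM at day 4 in 4F D/KO cells (log2 change -0.45, edgeR adjusted p = 0.00943). That call was lost without day 4 replicate 2 (-0.29, edgeR adjusted p = 0.118), the library with the lowest transcript length score of its group (-0.44, against -0.10 and 0.13). With the score in the fit Fbn1 differed by -0.39 (edgeR adjusted p = 0.00257). Within the 4F WT line, its log2 difference at day 4 was 0.29 (edgeR adjusted p = 0.132). Fbln5 rose in 4F D/KO cells from 791.0–912.1 to 990.8–1148 CPM (log2 change 0.39, edgeR adjusted p = 0.00434). With VC it went the other way, from 1132–1539 to 363.1–519.2 CPM (-1.52, edgeR adjusted p = 1.72e-14, or -0.91 against day 0 without VC). On the same baseline the 4F D/KO differences at day 4 plus VC were -1.49 for Fbn1 and -1.61 for Loxl3, against -0.55 and -0.76 from day 0 plus VC. In 4F WT cells with VC it fell from 1145–1340 to 747.1–776.9 CPM (-0.71, edgeR adjusted p = 1.86e-06).

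By count, 1 member was higher and 5 were lower in 4F D/KO cells at day 2, where 14.2% and 13.1% of all genes tested were higher and lower. At day 4 in the same cells 2 were higher and 8 lower (18.2% and 18.7% of all genes), with a median log2 change of -0.82 over the members and 0.00 over all genes. With VC, 2 were higher and 7 lower at day 2 (23.6% and 23.6%), and 2 higher and 8 lower at day 4 (27.8% and 26.0%), where the members' median was -1.56 and that of all genes 0.01. All 10 members therefore passed the test at day 4 in 4F D/KO cells in both arms. Among 4F WT cells, 1 was higher and 3 lower at day 2 (6.28% and 4.29%), and 2 higher and 4 lower at day 4 (11.6% and 12.7%). With VC in 4F WT cells 2 were higher and 5 lower at day 2 (13.8% and 13.5%), and 1 higher and 7 lower at day 4 (22.6% and 21.9%). The 4F WT count at day 2 is the least firm: it was 2 without day 0 replicate 2 and 2 without day 2 replicate 3.

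**Figure D2:**
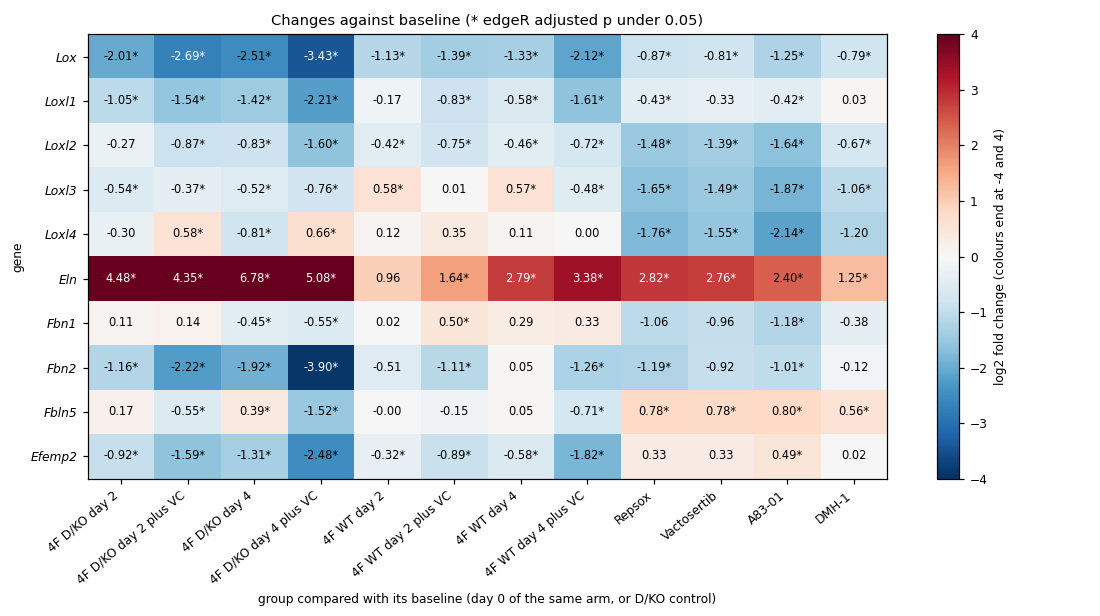
Log2 fold change of each of the 10 genes (rows) in the 8 reprogramming groups against day 0 of the same arm and the 4 inhibitor groups against D/KO control (columns), with an asterisk where the edgeR adjusted p was under 0.05. Eln is positive in all 12 columns and passes the test in 11, while Lox is negative and passes in all 12.

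VC itself was read at day 0 and at day 4. At day 0 it changed 6 members in 4F D/KO cells (3 higher and 3 lower, against 25.9% of all genes in either direction) and 5 in 4F WT cells (all higher, against 29.3%). Besides Fbn2, the assembly genes Efemp2 and Fbln5 rose with VC in both lines (log2 changes of 0.32 and 0.35 for Efemp2, 0.61 and 0.29 for Fbln5, in 4F D/KO and 4F WT cells). The Efemp2 call in 4F D/KO cells was lost without day 0 plus VC replicate 2 (0.27). The Fbln5 call in 4F WT cells was lost in 5 of 6 fits without 1 library, all but that without day 0 plus VC replicate 2 (0.23 to 0.32 in the 5). Fbn1 fell in 4F D/KO cells (-0.94, edgeR adjusted p = 1.83e-06), and its log2 difference in 4F WT cells was -0.11 (edgeR adjusted p = 0.608), but the lines were not tested against each other on this point. Loxl1 rose in 4F WT cells (0.40, edgeR adjusted p = 0.00122). Loxl3 fell by 0.85 in 4F D/KO cells and rose by 0.40 in 4F WT cells on the log2 scale. The fall of Eln in 4F D/KO cells (-1.38 ± 0.44, edgeR adjusted p = 0.0232) was lost in 4 of the 6 fits that left out 1 library. These were the fits without day 0 replicates 1 and 2 (-1.07 and -1.31) and without day 0 plus VC replicates 2 and 3 (-1.31 and -1.05).

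At day 4, groups with VC held less of most members than groups without. Within the 4F D/KO line, 9 members differed (34.3% of all genes in either direction), 8 of them lower with VC. Eln differed most, at 110.6–212.6 CPM with VC and 1154–1661 CPM without (-3.08 ± 0.37, edgeR adjusted p = 2.86e-07), and Loxl4 was higher with VC (1.17, edgeR adjusted p = 1.47e-05). Fbn2 differed by 0.53 and missed the threshold (edgeR adjusted p = 0.0625), but passed as higher with VC without day 4 replicate 3 (0.85, edgeR adjusted p = 0.00336) and with the transcript length score in the fit (0.50, edgeR adjusted p = 0.0309). For 4F WT cells, 7 members differed (22.2%), 6 of them lower. The higher one, Fbn2 (0.64), was lost without day 4 replicate 1 (0.58) or day 4 plus VC replicate 1 (0.41), and Loxl2 (-0.33) was lost in 5 of 6 fits without 1 library, all but that without day 4 plus VC replicate 1. Eln did not pass the test (-0.13, 95% interval from -0.83 to 0.57). Lox was lower with VC in both lines (-0.76 in 4F D/KO and -1.07 in 4F WT cells).

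The change in 4F D/KO cells was then set against that in 4F WT cells. At day 0, 6 members differed between the lines (43.0% of all genes). Eln was lower in 4F D/KO cells (log2 difference -2.54 ± 0.39, edgeR adjusted p = 7.69e-06), and Loxl3 (1.12), Fbn1 (0.80), Loxl4 (0.64) and Loxl2 (0.50) were higher. Fbln5 was lower by 0.28, a call lost in 5 of 6 fits without 1 library, all but that without 4F D/KO day 0 replicate 2 (-0.29 to -0.24 in the 5), and Loxl4 was lost without 4F D/KO day 0 replicate 3 (0.51, edgeR adjusted p = 0.0627). From day 0 to day 4, the change differed for 8 members (14.1%), and with VC also for 8 (29.1%). The rise of Eln was larger in 4F D/KO cells by 3.99 ± 0.52 (edgeR adjusted p = 4.66e-06), and by 1.71 ± 0.55 with VC (edgeR adjusted p = 0.0203). The latter was lost without 4F D/KO day 0 plus VC replicate 3 (1.38, edgeR adjusted p = 0.073) and was at the threshold without 4F D/KO day 4 plus VC replicate 2 (1.55, edgeR adjusted p = 0.05). The fall of Lox was larger in 4F D/KO cells, with a log2 difference of -1.19 without VC (edgeR adjusted p = 4.23e-06) and -1.31 with VC (edgeR adjusted p = 2.86e-07). Genotype, sex, age and line cannot be told apart in these differences.

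The inhibitor table asks what happens to the same genes when the receptors themselves are blocked for 3 days. The 4 inhibitor groups share the 3 D/KO control libraries, so their values are given side by side and not as separate support. The paper lists a lower dose for Repsox and Vactosertib than for A83-01 and DMH-1, so dose and compound change together between those pairs. Eln rose, and Lox, Loxl2, Loxl3 and Loxl4 fell, with each of Repsox, Vactosertib and A83-01. Eln was 11.1, 13.2 and 11.3 CPM in D/KO control libraries and 86.8, 86.7 and 77.95 CPM with Repsox (log2 change 2.82 ± 0.20, edgeR adjusted p = 1.99e-09). It was 85.1, 86.6 and 69.9 CPM with Vactosertib (2.76 ± 0.20) and 69.5, 54.9 and 64.0 CPM with A83-01 (2.40 ± 0.20). With DMH-1 it was 36.8, 26.6 and 21.3 CPM (1.25 ± 0.19, edgeR adjusted p = 0.000246), above every control library and below every library of the other 3 inhibitors. The 5 smooth muscle and pericyte markers summed to 94.7–125.0 CPM in D/KO control, 88.6–197.0 CPM with Repsox, a median of 156.0 and at most 164.0 CPM with Vactosertib, 111.0–150.0 CPM with A83-01 and 81.6–105.0 CPM with DMH-1, each of which overlaps control. Other classes did not overlap it: Schwann and melanocyte markers summed to 6.61–9.53 CPM in control, 17.2–19.2 CPM with Repsox, 13.7–17.6 CPM with Vactosertib, 30.8–38.9 CPM with A83-01 and 10.9–13.8 CPM with DMH-1. Chondrocyte markers summed to 35.6–42.0 CPM in control, 46.7–78.0 CPM over the 3 ALK5 inhibitors and 10.8–20.6 CPM with DMH-1, and endothelial markers to 290.0–331.0 CPM in control and 141.0–181.0 CPM with A83-01. Leukocyte markers summed to 6.61–10.3 CPM in control, 11.3–24.3 CPM over the 3 ALK5 inhibitors and 7.21–9.51 CPM with DMH-1, which overlaps control. Epithelial markers were at 0.488–1.06 CPM in control, 2.82–3.7 CPM with Repsox and 0.0957–2.5 CPM over the other 3 inhibitors. The part of these classes in the inhibitor results was not tested.

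**Figure D3:**
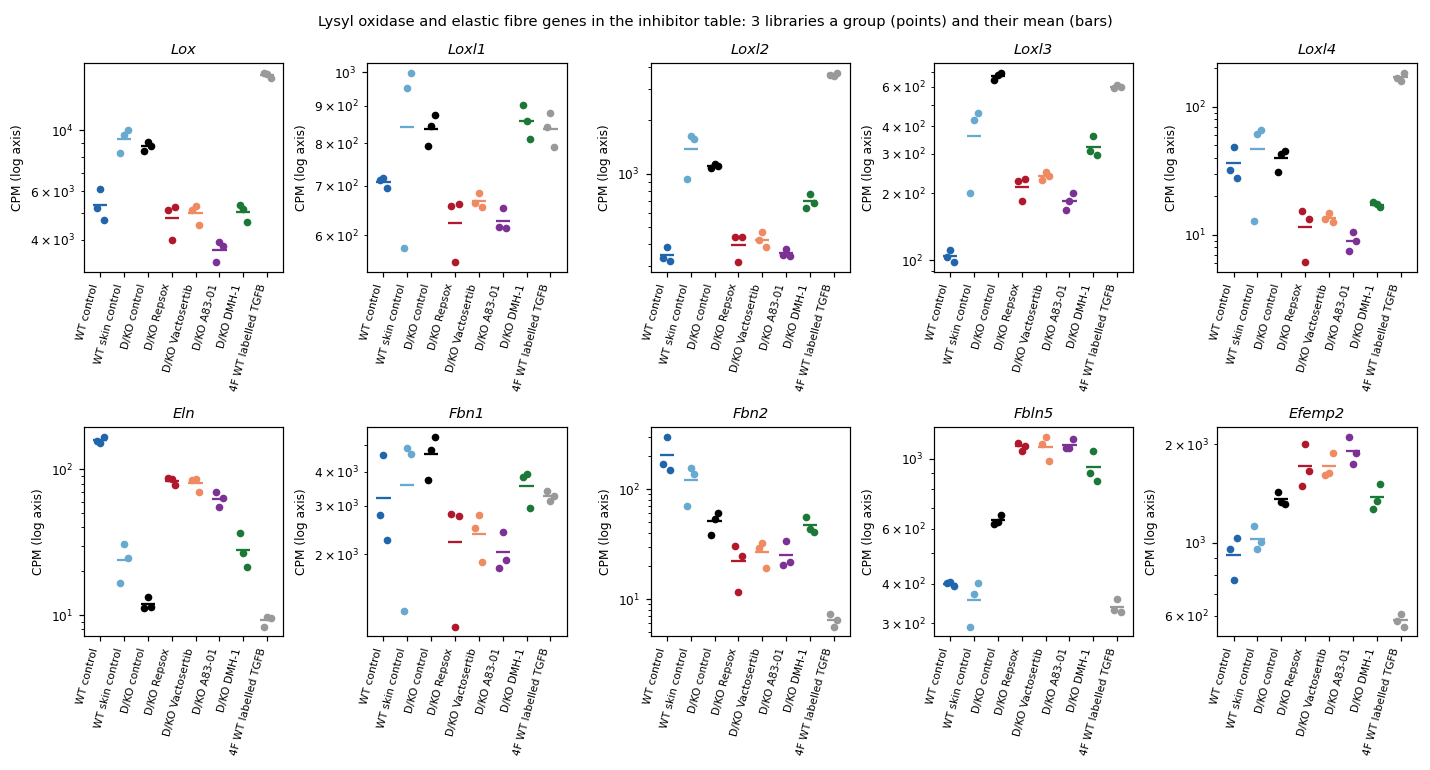
Level of each gene (CPM, log axis) in the 8 groups of the inhibitor table, with 1 point for each library and a bar at the mean of 3. Eln sits at 54.9–86.8 CPM with the ALK5 inhibitors against 11.1–13.2 CPM in D/KO control, and Lox, Loxl2, Loxl3 and Loxl4 sit below D/KO control in all 4 inhibitor groups.

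Among the enzymes, Loxl3 fell from 645.0, 678.8 and 695.7 CPM in D/KO control to 226.8, 185.3 and 230.6 CPM with Repsox (-1.65 ± 0.19, edgeR adjusted p = 1.98e-06). It stood at 230.5–248.8 CPM with Vactosertib (-1.49), 168.8–200.2 CPM with A83-01 (-1.87) and 296.1–361.9 CPM with DMH-1 (-1.06, edgeR adjusted p = 0.00109). Loxl2 fell from 1073–1135 CPM to 313.4–439.3 CPM with Repsox (-1.48), 383.5–463.6 CPM with Vactosertib (-1.39) and 340.1–373.4 CPM with A83-01 (-1.64). With DMH-1 Loxl2 stood at 639.8–764.0 CPM (-0.67, edgeR adjusted p = 0.0152), a call lost without control replicate 2 (-0.65), DMH-1 replicate 1 (-0.61) or DMH-1 replicate 3 (-0.65). Every inhibitor group lay below all control libraries for these 2 genes.

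Lox fell from 8417, 9082 and 8767 CPM to 5118, 3980 and 5256 CPM with Repsox (-0.87 ± 0.13, edgeR adjusted p = 3.5e-05). It was 4512–5319 CPM with Vactosertib (-0.81), 3311–3923 CPM with A83-01 (-1.25) and 4633–5357 CPM with DMH-1 (-0.79, edgeR adjusted p = 0.00039). A83-01, at a higher dose than Repsox and Vactosertib, was the lowest group, apart from the other 3, which overlapped each other. Loxl1 was the lysyl oxidase that moved least: 550.4–661.9 CPM with Repsox against 794.2–874.1 CPM in control (-0.43, edgeR adjusted p = 0.0358), with log2 differences of -0.33 for Vactosertib, -0.42 for A83-01 and 0.03 for DMH-1. The Repsox call for Loxl1 was lost in each of the 6 fits without 1 of its libraries (log2 differences from -0.47 to -0.35). The A83-01 call (edgeR adjusted p = 0.0315) was lost in 5 of 6, all but the fit without control replicate 1 (-0.45 to -0.39).

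Loxl4 and Fbln5 moved apart with the inhibitors. Loxl4 went from 31.0, 42.6 and 45.2 CPM in D/KO control to 15.4, 6.09 and 13.4 CPM with Repsox (-1.76 ± 0.40, edgeR adjusted p = 0.00284), 12.5–14.7 CPM with Vactosertib (-1.55) and 7.54–10.4 CPM with A83-01 (-2.14). With DMH-1 it was 16.5–17.9 CPM, all below control, but the difference of -1.20 ± 0.39 missed the threshold (edgeR adjusted p = 0.0727). It passed in the fit without both libraries that stand apart (edgeR adjusted p = 3.51e-05), though neither is in this comparison and only the shared fit changed. Fbln5 rose from 620.0, 627.8 and 663.4 CPM to 1127, 1058 and 1101 CPM with Repsox (0.78 ± 0.11, edgeR adjusted p = 2.49e-05). It rose by the same measure with Vactosertib (0.78), A83-01 (0.80) and DMH-1 (0.56, edgeR adjusted p = 0.0028). Every inhibitor library of Fbln5 was above every control library.

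Of the 10 members, 4 have a promoter window in the RefSeq table (GRCm38.p6, 250 bases before to 50 after a start): Loxl4, Fbn1, Fbln5 and Efemp2. The windows of Loxl4 and of the first listed start of Fbln5 are shown because these genes moved in opposite directions when ALK5 was blocked. Smad proteins are known to bind short elements with the letters CAGAC, and capitals mark them on either strand. Loxl4 lies at chr19:42612757-42613056 and Fbln5 at chr12:101819070-101819369, both on the minus strand, printed 5′ to 3′.
Loxl4: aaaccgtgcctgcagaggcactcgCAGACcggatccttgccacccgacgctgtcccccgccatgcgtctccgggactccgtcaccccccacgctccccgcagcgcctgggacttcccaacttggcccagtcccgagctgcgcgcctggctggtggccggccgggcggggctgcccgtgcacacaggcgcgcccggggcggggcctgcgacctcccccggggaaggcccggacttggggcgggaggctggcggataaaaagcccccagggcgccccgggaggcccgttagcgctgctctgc
Fbln5: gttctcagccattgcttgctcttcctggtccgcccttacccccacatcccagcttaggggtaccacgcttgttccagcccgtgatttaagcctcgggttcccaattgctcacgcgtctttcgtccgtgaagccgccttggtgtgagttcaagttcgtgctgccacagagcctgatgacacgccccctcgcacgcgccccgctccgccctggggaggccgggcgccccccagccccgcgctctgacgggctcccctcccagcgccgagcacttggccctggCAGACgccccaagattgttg
Each of the 2 windows holds 1 match, and 49.6% of the 32851 windows in the table hold at least 1. The window of the second listed Fbln5 start holds 2 CAGAC matches and 1 CACCC match. The AP-1 letters TGANTCA, searched on both strands, were in 7.8% of all windows and in none of those of the 4 genes. The Klf letters CACCC, in 57.5% of all windows, were found 2 times in the Loxl4 window, 4 times in that of Fbn1 and 0 times in that of the first Fbln5 start. A match is only a match of letters.

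The fibrillins, whose exons are the longest of the 10 genes at 12128 bases (Fbn1) and 13215 bases (Fbn2), varied between the libraries of a group. Fbn1 was 3712, 4798 and 5354 CPM in D/KO control and 2798, 1093 and 2749 CPM with Repsox (-1.06 ± 0.39, edgeR adjusted p = 0.0569). The low Repsox library is replicate 2, with the transcript length score of -0.77. With Vactosertib Fbn1 was 1873–2770 CPM (-0.96, edgeR adjusted p = 0.0966) and with A83-01 1789–2410 CPM (-1.18, edgeR adjusted p = 0.0262). Every ALK5 inhibitor library was below every control library. Without both libraries that stand apart the difference was -0.74 for Repsox (edgeR adjusted p = 0.0237) and -0.96 for Vactosertib (edgeR adjusted p = 0.00146). Neither library is in the Vactosertib comparison, which moved only through the shared fit.

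Fbn2 behaved alike: 38.1, 53.5 and 60.6 CPM in D/KO control, 30.2, 11.6 and 24.8 CPM with Repsox (-1.19, edgeR adjusted p = 0.0159), 19.1–32.2 CPM with Vactosertib (-0.92, edgeR adjusted p = 0.0671) and 20.3–33.5 CPM with A83-01 (-1.01, edgeR adjusted p = 0.031). Without Repsox replicate 2 the Repsox difference was -0.88 (edgeR adjusted p = 0.0779), and without control replicate 3 it was -1.04 (edgeR adjusted p = 0.0685). The A83-01 calls of Fbn1 and Fbn2 were each lost in 4 of 6 fits without 1 library (control replicates 2 and 3, A83-01 replicates 1 and 3), with values from -1.16 to -1.06 for Fbn1 and from -0.97 to -0.86 for Fbn2. With DMH-1 neither passed the test (-0.38 for Fbn1 and -0.12 for Fbn2). When the transcript length score entered the fit, added after the data were seen, Fbn1 differed by -0.92 with Repsox (edgeR adjusted p = 1.21e-12) and by -0.66 with Vactosertib (edgeR adjusted p = 2.44e-09), and with DMH-1 it then passed the test too (-0.19, edgeR adjusted p = 0.0403).

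**Figure D4:**
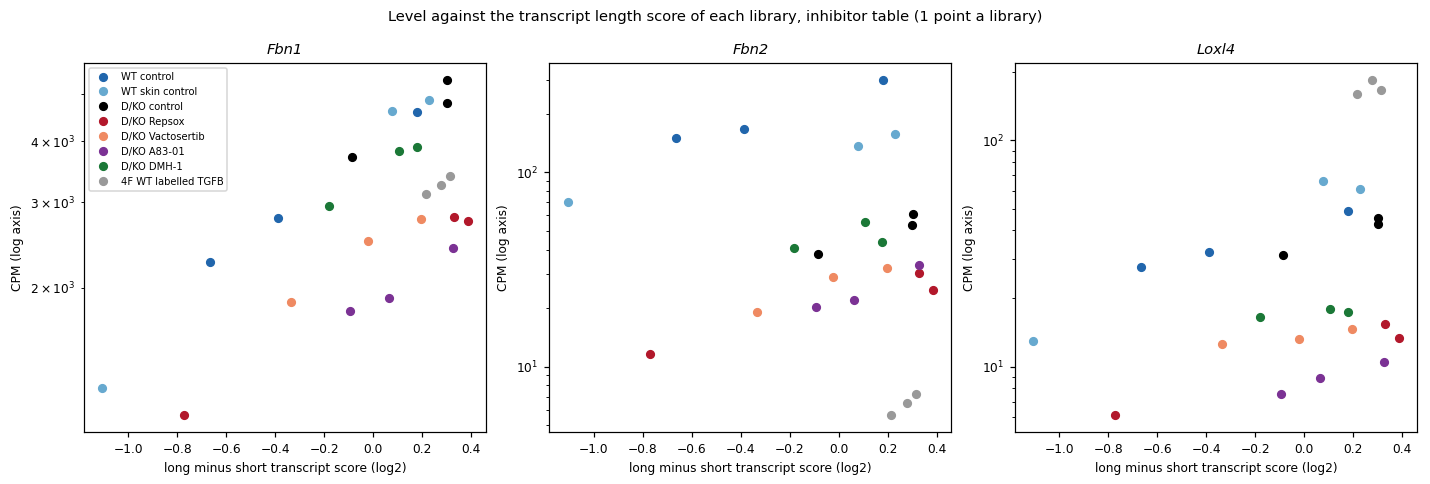
Level of Fbn1, Fbn2 and Loxl4 (CPM, log axis) against the long minus short transcript score of the library (log2 units), with 1 point for each of the 24 libraries of the inhibitor table, coloured by group. The points farthest left, WT skin control replicate 1 at -1.11 and Repsox replicate 2 at -0.77, hold the lowest values of their groups in all 3 panels.

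Efemp2 stood at 1320–1432 CPM in D/KO control and rose with A83-01 to 1737–2112 CPM (0.49 ± 0.13, edgeR adjusted p = 0.00629). With Repsox (1491–2000 CPM) and Vactosertib (1615–1886 CPM) the log2 difference was 0.33 in each and missed the threshold (edgeR adjusted p = 0.0736 and 0.0817), although no library overlapped control. With DMH-1 it was 1274–1512 CPM (0.02).

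By count, Repsox changed 8 members, 2 higher and 6 lower, where 10.9% and 9.70% of all genes were higher and lower. Vactosertib changed 6, 2 higher and 4 lower (9.29% and 8.65%), and 10 when only the 6 libraries compared entered the fit. A83-01 changed all 10, 3 higher and 7 lower (13.6% and 13.9%), and from 7 to 10 when 1 library was left out. DMH-1 changed 5, 2 higher and 3 lower (4.33% and 2.90%). The median log2 difference of the members was -0.97, -0.87, -1.10 and -0.25 for Repsox, Vactosertib, A83-01 and DMH-1, against medians of all genes from 0.00 to 0.02.

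Inhibitors given at the same dose were compared directly in 2 pairs. A83-01 and DMH-1, which block ALK5 and ALK2, differed for 6 members (20.4% of all genes). A83-01 left more Eln (log2 difference 1.15 ± 0.19, edgeR adjusted p = 0.000106) and more Efemp2 (0.47). Loxl2 (-0.98, edgeR adjusted p = 0.000166), Loxl3 (-0.80), Lox (-0.46) and Loxl1 (-0.45) were lower with A83-01. Loxl1 was lost in 5 of 6 fits without 1 library, all but that without DMH-1 replicate 3. Lox and Efemp2 were lost without DMH-1 replicate 1 (-0.41 and 0.42) or A83-01 replicate 1 (-0.38 and 0.39). The count was 3 without DMH-1 replicate 1 and 3 without A83-01 replicate 1, and 10 without both libraries that stand apart. Neither of those libraries is in this pair, so that last count changed only through the fit shared by all groups. Repsox and Vactosertib, ALK5 inhibitors of which the second also blocks ALK2, differed for 0 members and for 0% of all genes by edgeR. At an unadjusted p under 0.05 the pair differed for 0 members and 342 genes, and DESeq2 called 6 genes. For Eln the difference was 0.06 with a 95% interval from -0.33 to 0.44, and for Lox -0.06 with an interval from -0.33 to 0.20. For Loxl4 the interval ran from -1.04 to 0.61, so a change of up to that size could not be seen.

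Untreated cells of different origin differed in the same genes. D/KO control and WT control cells differed for 7 members (34.5% of all genes). Eln was 151.3–168.0 CPM in WT control against 11.1–13.2 CPM in D/KO control (-3.74 ± 0.21, edgeR adjusted p = 1.29e-11), so the inhibitors brought D/KO cells to levels still below every WT control library. Loxl3 was 97.8–110.9 CPM in WT control and 645.0–695.7 CPM in D/KO control (2.69 ± 0.20, edgeR adjusted p = 1.1e-09), and Loxl2 (1.68), Lox (0.71), Fbln5 (0.67) and Efemp2 (0.56) were also higher in D/KO control. Fbn2 was lower in D/KO control (-2.02, edgeR adjusted p = 9.2e-05). Age and line change with genotype here.

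WT skin control cells differed from WT control cells of the tail tip for 4 members (34.1% of all genes). Eln was lower in skin, at 16.5, 30.8 and 24.6 CPM (-2.73 ± 0.20, edgeR adjusted p = 1.09e-09). Loxl2 (927.1, 1633 and 1563 CPM in skin, 320.6–381.4 CPM in tail tip), Loxl3 (201.5, 426.2 and 458.3 CPM in skin) and Lox (8279–9964 CPM in skin) were higher. Skin replicate 1, the library with the score of -1.11, was the lowest of its group for each of these genes. Without both libraries that stand apart the comparison called 7 members, with Loxl4 at 0.81 (edgeR adjusted p = 0.000889), Loxl1 at 0.46 and Fbn1 at 0.56.

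The 4F WT cells labelled TGFB have no control in their table, so only levels are given. They held more Lox than any other group of the table, 16150, 16000 and 15480 CPM, and more Loxl2, 3621, 3577 and 3733 CPM. Loxl4 was 167.4, 160.6 and 185.4 CPM, apart from the next group (46.7 ± 29.4 CPM). Eln was at its lowest of the table, 8.34, 9.72 and 9.58 CPM, as was Fbn2, 7.24, 5.62 and 6.51 CPM. In the reprogramming table, scaled separately, 4F WT cells at day 0 stood at 6155 ± 88.6 CPM for Lox, 595.5 ± 3.05 for Loxl2, 30.2 ± 2.00 for Loxl4 and 78.7 ± 28.3 CPM for Eln. That difference between tables was not tested. Smooth muscle and pericyte markers also stood highest in the cells labelled TGFB, at 440.0–452.0 CPM in sum against 36.6–197.0 CPM in the other groups of the table and 47.0–53.2 CPM in 4F WT cells at day 0, and their part in these levels was not tested.

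Partner genes from fixed lists were read beside the members. Of 21 microfibril and fibulin partners, 20 were tested. In 4F D/KO cells at day 4 plus VC 4 rose and 14 fell (median log2 change -1.84, all genes 0.01), where 27.8% and 26.0% of all genes rose and fell. Among 4F WT cells, 7 rose and 10 fell (-0.55, all genes 0.03), against 22.6% and 21.9% of all genes. Without VC the median at day 4 was -0.41 in 4F D/KO cells (5 rose and 8 fell, with 18.2% and 18.7% of all genes). In 4F WT cells without VC it was -0.05 (4 rose and 7 fell, with 11.6% and 12.7% of all genes). VC alone at day 0 raised 10 and lowered 5 of the 20 in 4F D/KO cells, and raised 6 and lowered 6 in 4F WT cells. It changed 25.9% and 29.3% of all genes in either direction. Ltbp4, a latent TGFb binding protein that joins elastic fibres, rose from 99.0 ± 4.17 to 226.0 ± 37.4 CPM in 4F D/KO cells and from 76.5 ± 12.6 to 469.0 ± 26.9 CPM in 4F WT cells (log2 changes 1.19 and 2.62, or 0.61 and 1.57 against day 0 without VC). Emilin2 rose in the same comparisons (0.99 and 1.65), though in 4F D/KO cells its difference from day 0 without VC was -0.21. Mfap4, a microfibril protein, fell from 46.7 ± 25.0 to 1.12 ± 0.53 CPM in 4F D/KO cells (-5.38, edgeR adjusted p = 2.02e-12) and from 58.1 ± 5.59 to 5.96 ± 0.89 CPM in 4F WT cells (-3.28). Mfap2 fell in 4F D/KO cells (-2.91) and Fbln7 in 4F WT cells (-3.94, or -2.63 against day 0 without VC). The falls of Mfap2 and of Mfap4 rest on the VC baseline: against day 0 without VC they were -0.19 and -0.82 in 4F D/KO cells and missed the threshold, as did Mfap4 in 4F WT cells (-0.03).

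With A83-01, 8 of these partners rose and 7 fell (median 0.17, all genes 0.00), where 13.6% and 13.9% of all genes rose and fell. Fbln7 rose from 1.68 ± 0.62 to 33.4 ± 0.84 CPM (4.31 ± 0.27, edgeR adjusted p = 1.61e-10) and Adamts17, a protease of microfibrils, from 0.61 ± 0.57 to 5.46 ± 0.44 CPM (3.15). Fbln2, a fibulin that binds tropoelastin, fell from 7640 ± 894.0 to 775.0 ± 88.4 CPM (-3.30, edgeR adjusted p = 1.4e-08). Adamtsl2, a microfibril-bound protein, had 19 counts over the 3 control libraries and 2 with A83-01, a ratio of 0.0898 with a counting interval from 0.0101 to 0.372. Repsox and Vactosertib each raised 7 and lowered 6 of the partners (10.9% and 9.70% of all genes for Repsox, 9.29% and 8.65% for Vactosertib). DMH-1 raised 3 and lowered 4 (4.33% and 2.90% of all genes).

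Of 11 genes for the maturation and copper supply of lysyl oxidases, 10 were tested. At day 4 plus VC 0 rose and 8 fell in 4F D/KO cells (median log2 change -1.04, all genes 0.01, with 27.8% and 26.0% of all genes higher and lower). In the other line, 4F WT, 1 rose and 7 fell (-0.66, all genes 0.03, with 22.6% and 21.9%). Without VC 0 rose and 6 fell in 4F D/KO cells (-0.43, with 18.2% and 18.7% of all genes). In 4F WT cells without VC 1 rose and 2 fell (-0.06), near the shares of all genes (11.6% and 12.7%). VC alone at day 0 raised 5 and lowered 2 of the 10 in 4F D/KO cells, and raised 7 and lowered 1 in 4F WT cells. It changed 25.9% and 29.3% of all genes in either direction, so the counts with VC are read against a baseline that VC moved. Postn, which helps to bring Bmp1 to the Lox proenzyme, fell from 4120 ± 479.0 to 159.0 ± 42.3 CPM in 4F D/KO cells (-4.70, edgeR adjusted p = 1.48e-18) and from 4200 ± 366.0 to 651.0 ± 28.2 CPM in 4F WT cells (-2.69). Against day 0 without VC the differences of Postn were -2.37 and -1.69, so their size depends on the VC baseline. Thbs1 fell in 4F D/KO cells (-2.87), and Pcolce, an enhancer of procollagen processing, fell in 4F WT cells (-0.89), though it differed by -0.04 from day 0 without VC. Tll1, a protease like Bmp1, rose in 4F WT cells (0.59, edgeR adjusted p = 0.0185, or 1.93 against day 0 without VC). With A83-01 1 rose and 5 fell (13.6% and 13.9% of all genes), with Postn at 547.0 ± 83 CPM against 2820 ± 334.0 CPM (-2.37), Fn1 at -1.25 (edgeR adjusted p = 0.0377) and Pcolce at 0.32 (edgeR adjusted p = 0.0177). Repsox and Vactosertib each lowered 3 of the list and DMH-1 1, where 9.70%, 8.65% and 2.90% of all genes fell, and they raised 0 of the list, where 10.9%, 9.29% and 4.33% of all genes rose.

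Of 10 elastin-degrading enzymes, 8 were tested, and at day 4 plus VC 0 rose and 6 fell in each line (median log2 change -1.35 in 4F D/KO and -0.79 in 4F WT cells). Of all genes, 26.0% fell in 4F D/KO and 21.9% in 4F WT cells. Mmp14, a membrane metalloproteinase, fell in 4F D/KO cells from a mean of 1340 to one of 468.0 CPM (-1.52 ± 0.11, edgeR adjusted p = 7.72e-15). Mmp9, a gelatinase that also cuts elastin, fell in both lines but from low levels (3.55 ± 0.37 to 1.27 ± 0.37 CPM and 3.92 ± 0.45 to 1.09 ± 0.35 CPM). Ctsb, a lysosomal cathepsin, fell in 4F WT cells from 1970 ± 128.0 to 858.0 ± 11 CPM (-1.20), though it differed by -0.23 from day 0 without VC (edgeR adjusted p = 0.0252). Mmp14 differed by -0.78 from day 0 without VC in 4F D/KO cells. VC alone at day 0 raised 5 of the 8 enzymes in 4F D/KO cells, and raised 4 and lowered 1 in 4F WT cells (25.9% and 29.3% of all genes changed in either direction), so these counts are read against a baseline that VC moved. With A83-01 0 of the 8 passed the test, with Repsox 2 fell (9.70% of all genes), with Vactosertib 1 fell (8.65%) and with DMH-1 1 rose (4.33%).

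The genes whose pattern over the 12 reprogramming groups was most like each member were found by the root mean square distance between centred log2 CPM. For Eln the nearest was Prx, at 0.90, beyond the distances of the other members, against a spread of Eln itself of 2.21. For Lox the nearest were Ephb2 and Rac3 (0.30 each, against a spread of 1.10), and for Fbn2 they were Aebp1 and Galnt5 (0.39 and 0.42). Loxl2 was nearest to Mtss2 and Cnn2 (0.16 and 0.19), Loxl3 to Actn1 and Ptpn1 (0.19 and 0.20) and Loxl4 to Abcc4 and Phf6 (0.18 each). Fbn1 was nearest to Hs6st1 and Rara (0.19 and 0.20), and Fbln5 to Fam114a1 and Cdk5r1 (0.17 each). After each other, the nearest genes were Nek6 for Loxl1 (0.17) and Tlcd2 for Efemp2 (0.20).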

How the data were processed

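RNA of mouse fibroblasts was sequenced in 60 libraries, 20 groups of 3. Per the labels and the study's methods, the authors trimmed reads with Trim Galore, aligned them to GRCm39 with HISAT2 and counted them per gene with featureCounts, and deposited raw counts in 2 tables. Versions, annotation release and strand setting were not given in the sources used here. Gene symbols came from GENCODE M39, which held 56236 of the 56980 identifiers.

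Each table was fitted alone, with all its groups, in edgeR 4.0.16 (R 4.3.3) by the quasi-likelihood test after TMM scaling, with genes kept by filterByExpr (minimum count 10, minimum total 15) and Benjamini-Hochberg adjustment over all genes tested at 0.05. Intervals are 95%. DESeq2 1.42.0, other filters and scalings, a fold threshold, leaving out each library and 2 alternatives chosen after seeing the data were run beside it. Scripts were tested on simulated data. Partner genes named in the text were picked by a fixed rule, up to the 2 largest called changes in each direction per list. The members and lists were chosen with earlier results of these data known. Pattern likeness used log2 CPM with a prior count of 2. Of the genes picked by the likeness rule, 1 is left out of the text and not reported here.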

Additional observations from a re-analysis of the deposited data

Results flagged for a closer look

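The change from day 0 to day 4 differed between 4F D/KO and 4F WT cells for 8 members in each arm, by the interaction term of the edgeR fit. Without VC the log2 difference (4F D/KO minus 4F WT) was 3.99 for Eln, -1.97 for Fbn2, -1.19 for Lox, -1.09 for Loxl3, -0.92 for Loxl4, -0.83 for Loxl1, -0.74 for Fbn1 and -0.73 for Efemp2 (edgeR adjusted p from 5.04e-07 to 0.0218). With VC it was 1.71 for Eln, -2.64 for Fbn2, -1.31 for Lox, -0.89 for Loxl2, -0.88 for Fbn1, -0.81 for Fbln5, -0.66 for Efemp2 and -0.60 for Loxl1 (edgeR adjusted p from 7.86e-09 to 0.0203). The Loxl4 call was lost without 4F D/KO day 0 replicate 3, 4F D/KO day 4 replicate 1 or 2, or 4F WT day 4 replicate 3 (-0.84 to -0.78, edgeR adjusted p from 0.0584 to 0.0748), and with the transcript length score in the fit (-0.61, edgeR adjusted p = 0.119). Genotype, sex, age and line cannot be told apart in these differences.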

How the results depend on the processing

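No paired analysis was possible because the labels carry running sample numbers and no replicate number shared between groups. Over 196 gene results, DESeq2 size factors altered no call, subtracting the median change (at most 0.032) could not test the calls, DESeq2 gained 7 and lost 0, no filter gained 7 and lost 9, and fitting only the libraries compared gained 15 and lost 6. Leaving out 1 library at a time gave 1284 gene results, of which 1195 stayed on their side of the threshold, 73 were lost, 16 were gained and 0 reversed. With a log2 fold change of at least 1 asked for, the members called in 4F D/KO cells were 5 at day 2 plus VC, 5 at day 4, 2 for VC alone and 5 for VC at day 4. In 4F WT cells they were 1 at day 2, 3 at day 2 plus VC, 2 at day 4, 5 at day 4 plus VC, 1 for VC alone and 1 for VC at day 4. Between the lines they were 2 at day 0, 4 for the change at day 4 and 3 with VC, and among the inhibitors 5 for Repsox, 2 for DMH-1, 1 for A83-01 against DMH-1 and 4 for D/KO against WT control. With only the libraries compared, Vactosertib had 10. With the transcript length score as a covariate, Vactosertib had 10, A83-01 against DMH-1 10 and skin against tail tip 8, and without both libraries that stand apart 10, 10 and 7. Without 1 library the count ran from 2 to 3 for 4F WT day 2 and from 3 to 6 for A83-01 against DMH-1. Against day 0 without VC, signs turned for Fbn1 (-0.80), Fbn2 (0.28) and Fbln5 (0.066) at 4F D/KO day 2 plus VC, Emilin2 (-0.21) at 4F D/KO day 4 plus VC, and Fbn2 in 4F WT cells with VC (0.83 at day 2, 0.69 at day 4), since VC alone moved the baseline. With the length covariate Loxl4 in D/KO against WT control turned to -0.45 (edgeR adjusted p = 0.0185, against 0.13 and not called). In the other cases the cause was not tested. The covariate also lost the calls of Loxl2 at 4F WT day 2 (-0.32) and for VC at 4F WT day 4 (-0.26), and the Loxl4 difference between the lines at day 4 (-0.61). Depth limits the genes at a few CPM or less, such as Adamtsl2, Adamts17, Mfap4, Fbln7 and Mmp9.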
